A study of Homo sapiens with 4 samples.

Results

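The genes described here encode 9 enzymes that make asparagine, make serine and pass its carbon through the folate cycle: ASNS, PSAT1, PHGDH, PSPH, SHMT1, SHMT2, MTHFD1, MTHFD1L and MTHFD2. They were taken by name from 18774 genes on the array, and where a gene had several probes, the brightest on average over the 4 arrays stood for it. All 9 were found, and all 9 passed a filter that kept the 13755 genes whose mean signal exceeded the median probe. The probes were thus chosen by mean signal, and ASNS and PSAT1 were already known from these arrays to be lower after MIF siRNA when the enzymes were listed. Their values in that comparison are therefore given as a description, without a test.

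The cells were HEK293, a human embryonic kidney cell line, and total RNA was measured on Illumina Human-6 bead arrays. The siRNA was directed at MIF, the gene of a cytokine named for slowing macrophage migration, and cells were collected 24 h after transfection with a Lipofectamine reagent. There were 2 arrays of cells given MIF siRNA (1# and 2# in the labels), 1 of cells transfected with a control RNA and 1 of untreated cells. The series names doses of 50 and 100 pmol/ml, but only 2# carries a dose in its label, 50 pmol/ml, and whether 1# and 2# share an siRNA sequence is not stated. The untreated cells received neither RNA nor, as far as the labels say, the transfection reagent. Separate cultures are not stated for the arrays, so each p-value measures only the spread between these arrays, which may be technical.

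Signals are quantile-normalized intensities, which have no absolute unit and are compared between arrays for the same probe only. The deposited arrays had median intensities of 71.9 to 78.5. MIF itself, read by probe ILMN_1716169, had an intensity of 21908 in untreated cells, 22463 in control RNA, 11614 in 1# and 17040 in 2#. It was lower on both siRNA arrays, to 51.7% and 75.9% of control RNA, with an adjusted p of 0.0744 in limma. Of 8 genes listed as markers of HEK293 cells, 7 were above the median probe. The exception was PAX2, a kidney transcription factor gene, at percentile 43.6. The summed intensity of these markers was 41197 in untreated cells, 38808 in control RNA, 33679 in 1# and 40722 in 2#. This sum is weighted to its brightest probes, of the keratin genes KRT18 and KRT8. KRT8 read 11586, 11034, 8931 and 11862 in the same order. Single markers differed in direction: the vimentin gene VIM read 6322, 5965, 8792 and 7094 on these arrays in that order, and the keratin gene KRT18 18466, 17367, 12269 and 16965. For 7 genes of blood, endothelium, liver, fibroblasts and other epithelia the summed intensity was 525 to 547 on every array, and 3 of the 7 lay above the median probe. The part of these differences in the results below was not tested. In RNA from whole cultures, fewer cells expressing a gene and less RNA per cell cannot be told apart.

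Asparagine synthetase, encoded by ASNS, moves an amide nitrogen from glutamine onto aspartate. Serine is built from a glycolytic intermediate in 3 steps, by the dehydrogenase PHGDH, the transaminase PSAT1 and the phosphatase PSPH. SHMT1 in the cytosol and SHMT2 in mitochondria then split serine into glycine and a carbon unit held on tetrahydrofolate. In mitochondria the dehydrogenase and cyclohydrolase MTHFD2 oxidises that unit and MTHFD1L releases it as formate. MTHFD1 carries out the matching reactions in the cytosol, where the carbon is used for purines, thymidylate and methionine. Several of these genes, ASNS, PSAT1, PHGDH, SHMT2 and MTHFD2 among them, are known targets of ATF4, a transcription factor whose translation increases when amino acids are short. The ATF4 site in the ASNS promoter is a textbook amino acid response element.

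Promoter windows of 300 bases, from 250 before to 50 after the annotated start, were found for 7 of the 9 genes in RefSeq sequence of GRCh38.p14. The letters TGATGNAA, the core of the element bound by ATF4 and its partners, were searched on both strands. They occurred in windows of 2 of those genes, ASNS at -68 and MTHFD1L at -129 from the start. Among all genes with a window, 4.46% had a match, and 3.62% of all 35116 windows did. The E-box letters CACGTG, which do not overlap with that core, were found for MTHFD1 at -15 and for MTHFD1L at -154, against 8.77% of genes. The windows of PSAT1, PHGDH, SHMT1 and MTHFD2 held neither run of letters in either direction. That says nothing of sites outside the window or of other spellings. The windows of the 4 genes with the lowest signals relative to the controls are printed below, read in the direction of transcription, with matches to the ATF4 core in capitals. MTHFD1L has 4 annotated windows, of which the first in the table with a match is shown. Counted from other annotated starts of MTHFD1L, the same match lies at 24 or -90 and the E-box at -1 or -115. Window 4 held neither. ASNS has 2 windows, and the other held no match.
ASNS (chr7:97872359-97872658, - strand): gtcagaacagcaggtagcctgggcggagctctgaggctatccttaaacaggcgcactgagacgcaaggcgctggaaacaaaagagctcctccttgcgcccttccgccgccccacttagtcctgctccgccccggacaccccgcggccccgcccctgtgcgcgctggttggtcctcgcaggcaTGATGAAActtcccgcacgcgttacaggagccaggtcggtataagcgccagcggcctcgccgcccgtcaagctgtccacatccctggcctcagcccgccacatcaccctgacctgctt
MTHFD1L (chr6:150866236-150866535, + strand): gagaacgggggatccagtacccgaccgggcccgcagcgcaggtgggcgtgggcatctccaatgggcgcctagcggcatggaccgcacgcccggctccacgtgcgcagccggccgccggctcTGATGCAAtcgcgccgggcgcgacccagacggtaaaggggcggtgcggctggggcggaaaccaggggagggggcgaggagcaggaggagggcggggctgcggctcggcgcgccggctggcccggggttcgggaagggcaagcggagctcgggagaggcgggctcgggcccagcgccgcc
PSAT1 (chr9:78296875-78297174, + strand): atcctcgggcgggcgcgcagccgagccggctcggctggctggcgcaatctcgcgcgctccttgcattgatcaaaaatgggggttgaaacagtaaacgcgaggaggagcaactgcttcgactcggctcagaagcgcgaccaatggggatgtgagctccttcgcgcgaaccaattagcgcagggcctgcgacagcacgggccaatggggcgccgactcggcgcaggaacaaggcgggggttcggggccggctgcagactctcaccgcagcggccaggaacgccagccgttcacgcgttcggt
MTHFD2 (chr2:74198365-74198664, + strand): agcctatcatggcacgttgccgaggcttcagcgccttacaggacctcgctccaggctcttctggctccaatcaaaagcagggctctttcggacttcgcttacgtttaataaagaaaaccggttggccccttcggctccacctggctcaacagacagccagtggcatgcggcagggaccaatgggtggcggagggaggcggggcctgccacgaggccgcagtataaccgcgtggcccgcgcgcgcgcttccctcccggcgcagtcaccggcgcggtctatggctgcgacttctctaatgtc

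ASNS and PSAT1 had the lowest signals relative to the controls among the 9 genes. ASNS (probe ILMN_1796417) had an intensity of 5872 in untreated cells, 6084 in control RNA, 2394 in 1# and 2869 in 2#. Both siRNA arrays were below both control arrays, at 39.4% and 47.2% of control RNA and 40.8% and 48.9% of untreated cells. Relative to the controls its mean log2 difference was -1.19 ± 0.11 (SE, 2 arrays against 2), at rank 8 from the lowest of all 13755 genes. Each SE and interval given is limma's, which draws on the variance of all genes. It counts the difference between control RNA and untreated cells as spread. The transaminase gene PSAT1 (probe ILMN_1692938) had 3195 in untreated cells, 3127 in control RNA, 1482 in 1# and 1570 in 2#. The siRNA arrays lay within 0.08 of each other on the log2 scale, and about 1 log2 unit below either control. On average PSAT1 differed from the controls by -1.05 ± 0.09 (SE, log2), at rank 20 from the lowest. A second probe for PSAT1, ILMN_1712563, read 60.1 to 62.0 on all arrays, under the median probe, and carries no usable signal.

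**Figure D1:**
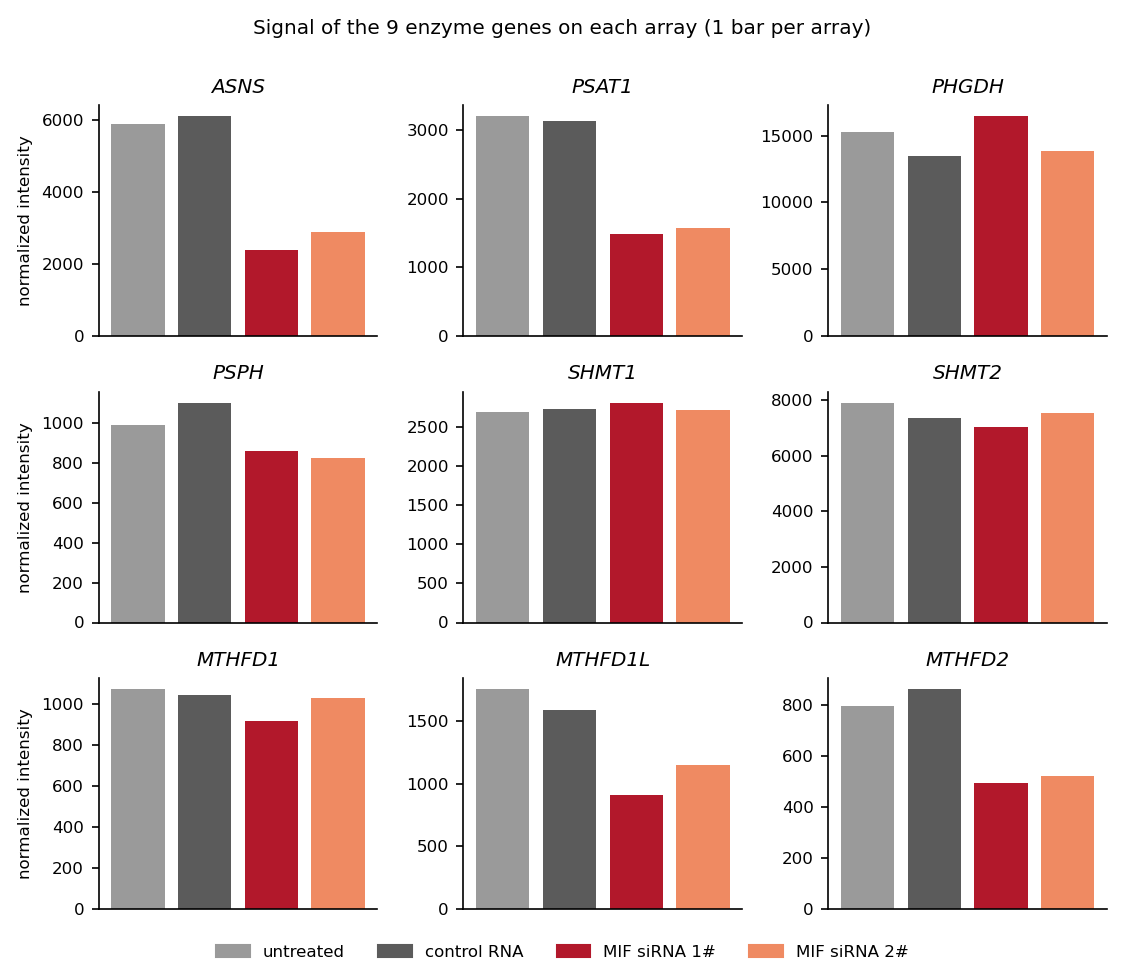
Normalized intensity (y axis, linear, from 0, with its own scale in each panel) of the 9 enzyme genes, with 1 bar for each of the 4 arrays. ASNS, PSAT1, MTHFD1L and MTHFD2 are lower on both MIF siRNA arrays (493.6 to 2869) than on the control arrays of the same gene, whereas SHMT1 is nearly level at 2688 to 2805.

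The other enzymes of serine synthesis did not share the size of that difference. PHGDH, which catalyses the entry step (probe ILMN_1704537), read 15294 in untreated cells, 13471 in control RNA, 16442 in 1# and 13879 in 2#. The siRNA and control arrays overlapped. PHGDH had a mean log2 difference of 0.07 ± 0.12 (SE), a 95% interval of -0.22 to 0.36 and an adjusted p of 0.732 in limma. PSPH, which removes the phosphate in the last step (probe ILMN_1776105), read 991.9 in untreated cells, 1102 in control RNA, 859.7 in 1# and 824.1 in 2#. Both siRNA arrays were below both controls, by 1.15-fold to 1.34-fold. Its mean log2 difference of -0.31 ± 0.09 (SE) did not pass, with an adjusted p of 0.0924 in limma.

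By the brightest probe of each gene, serine hydroxymethyltransferase differed little between the arrays in either compartment. The cytosolic form, SHMT1 (probe ILMN_1811933), read 2688 in untreated cells, 2725 in control RNA, 2805 in 1# and 2710 in 2#. These groups overlapped, and the mean log2 difference was 0.03, with a 95% interval of -0.18 to 0.23 and an adjusted p of 0.870 in limma. A dimmer SHMT1 probe, ILMN_1743784, did not give the same picture. It read 358.7 in untreated cells, 373.4 in control RNA, 293.6 in 1# and 311.5 in 2#. On that probe both siRNA arrays were below both controls, with a mean log2 difference of -0.28, so the direction for SHMT1 depends on the probe. The mitochondrial form, SHMT2 (probe ILMN_1661264), read 7891 in untreated cells, 7351 in control RNA, 7019 in 1# and 7545 in 2#. The value in 2# lay between the controls. For SHMT2 the mean log2 difference was -0.07, with a 95% interval of -0.29 to 0.16 and an adjusted p of 0.687 in limma.

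The enzymes downstream in mitochondria were lower on both siRNA arrays. MTHFD2 (probe ILMN_1674706) read 798.7 in untreated cells, 862.9 in control RNA, 493.6 in 1# and 523.1 in 2#. Every siRNA value was below every control value, by 1.53-fold to 1.75-fold. Its mean log2 difference of -0.71 ± 0.09 (SE) came with a limma adjusted p of 0.0501, just above the threshold of 0.05. That value was the smallest among all 13755 genes and not particular to MTHFD2. Other genes had the same one, among them MTRR and MAT2A, described below. MTHFD1L (probe ILMN_1772521) read 1752 in untreated cells, 1592 in control RNA, 906.5 in 1# and 1152 in 2#. Here too all siRNA values were below the controls, by 1.38-fold to 1.93-fold, with the lower value in 1#. MTHFD1L had a mean log2 difference of -0.71 ± 0.13 (SE) and a limma adjusted p of 0.0518. Among all genes these ranked 146 and 145 from the lowest. The cytosolic counterpart, MTHFD1 (probe ILMN_1785324), read 1069 in untreated cells, 1040 in control RNA, 914.0 in 1# and 1028 in 2#. The value in 2# was 1.18% below control RNA. The mean log2 difference of -0.12 had a 95% interval of -0.35 to 0.11 and an adjusted p of 0.458 in limma. Whether the mitochondrial and cytosolic genes differ from each other was not tested.

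The calls for MTHFD2 and MTHFD1L turned on the setting. When the arrays were scaled to a common median instead, the adjusted p in limma was 0.0350 for MTHFD2 and 0.0399 for MTHFD1L. It was also under 0.05 with no filter (0.0474 and 0.0483) and with a filter at percentile 75 (0.0390 and 0.0396). It stayed above 0.05 with normexp background correction (0.0536 and 0.0543), with the mean of all probes (0.0540 for both) and on the series value table (0.0502 and 0.0507). With 1 array left out, the lone array of its group was assumed to vary like the other pair, so only log2 differences are given. For MTHFD2 and MTHFD1L they were -0.67 and -0.54 without 1#, and -0.75 and -0.88 without 2#. Against control RNA alone they were -0.76 and -0.64, and against untreated cells alone -0.65 and -0.78.

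**Figure D2:**
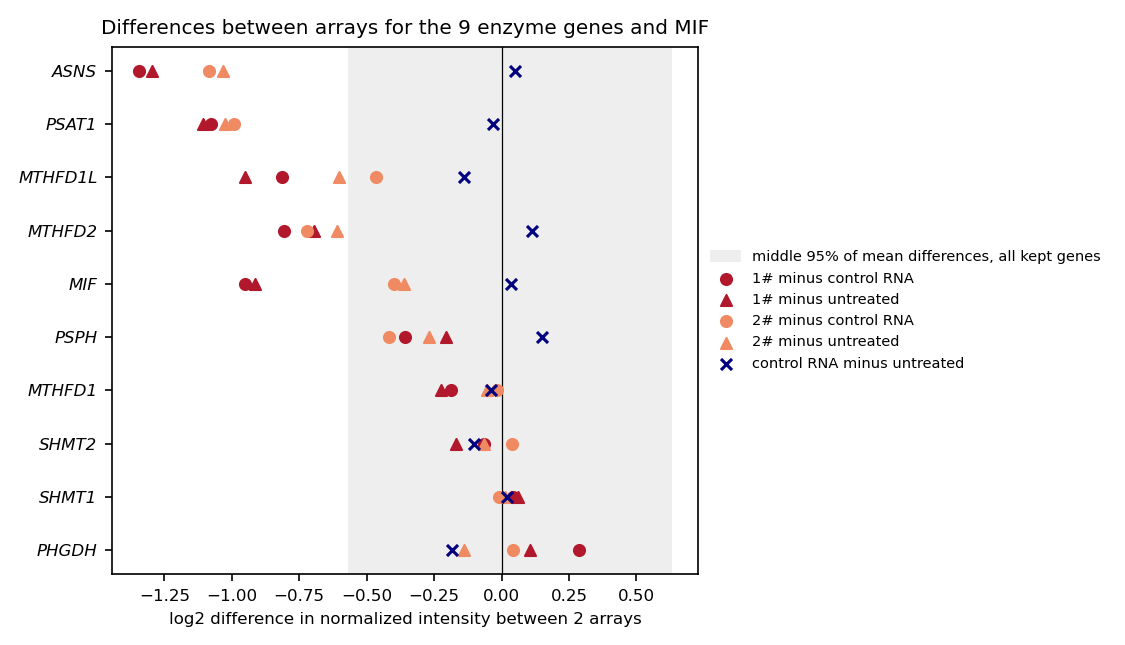
Log2 differences in normalized intensity (x axis) for the 9 enzyme genes and MIF (y axis). Circles and triangles set each MIF siRNA array against each control array (4 pairs), crosses are control RNA minus untreated, and the grey band, from -0.56 to 0.63, holds the middle 95% of mean differences of all kept genes. ASNS, PSAT1 and MTHFD2 lie left of the band in all 4 pairs, while the crosses lie between -0.18 and 0.15. Single pairs can spread more widely than the means that set the band.

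Counted together, 3 of the 9 genes (ASNS, PSAT1 and MTHFD2) were at least 1.5-fold lower in all 4 pairs of a siRNA and a control array. Of all genes, 0.4% were. ASNS and PSAT1 entered with this known, so the count is a description. A lower signal of any size in all 4 pairs was seen for 6 of the 9 (those 3 with MTHFD1L, PSPH and MTHFD1), against 28.7% of all genes. A higher signal in all 4 pairs was seen for 0, against 32.6% of all genes, and one at least 1.5-fold higher for 0, against 0.742%. The median log2 difference of the 9 was -0.31, beside 0.01 over all genes, and this too includes ASNS and PSAT1. Over the 7 others the median was -0.12, with 4 of 7 lower in all 4 pairs and 1 of 7 at least 1.5-fold lower. These 7 were also listed with earlier results of these arrays known, so their counts are a description too. In limma, with Benjamini-Hochberg adjustment over all genes, 0 of the 7 were called, and 0% of all genes were. At an unadjusted p under 0.05 there were 3 of these 7 (PSPH, MTHFD1L and MTHFD2) and 29.7% of all genes.

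Against each control condition alone, limma on group means called 0% of genes in either comparison, with 16.8% at an unadjusted p under 0.05 against control RNA and 12.8% against untreated cells. Both comparisons use the same siRNA arrays as the one above and are not independent of it.

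Control RNA was compared with untreated cells to show what transfection without MIF siRNA did to these genes. The log2 differences of control RNA minus untreated ran from -0.18 for PHGDH to 0.15 for PSPH, with 0.05 for ASNS, -0.03 for PSAT1, 0.11 for MTHFD2 and -0.14 for MTHFD1L. The median was -0.03 over the 9 genes and -0.01 over all genes, and that of the 9 became 0.04 under scaling to a common median. At least 1.5-fold apart were 0 of the 9, against 0.0945% of all genes. The limma fit called 0% of genes. An unadjusted p under 0.05 was found for 0.473% of all genes, and the smallest among the 9 was 0.365. With 1 array on each side, these p-values borrow their spread from the siRNA pair, so they measure no spread of the controls and do not show that the control arrays are alike.

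Between the siRNA arrays, the log2 difference of 1# minus 2# was -0.55 for MIF. The same difference was -0.26 for ASNS, -0.08 for PSAT1, -0.08 for MTHFD2 and -0.35 for MTHFD1L. PHGDH was 0.24 higher in 1# and PSPH 0.06 higher. There was 1 array on each side, so these differences were not tested. At least 1.5-fold apart were 0 of the 9 genes, against 2.14% of all genes.

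**Figure D3:**
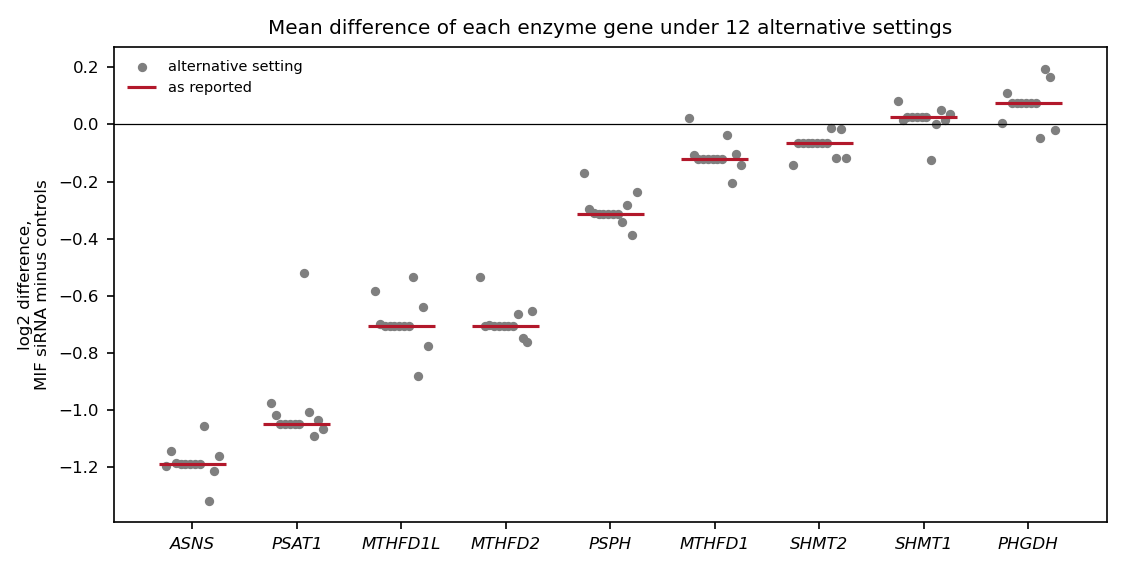
Mean log2 difference of MIF siRNA minus the control arrays (y axis) for each enzyme gene (x axis), as reported (red line) and under 12 alternative settings (grey points). ASNS, PSAT1, MTHFD1L, MTHFD2, PSPH and SHMT2 stayed below 0 under all 12, and the point for PSAT1 at -0.52 is the mean of its 2 probes.

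The genes most like ASNS and PSAT1 over the arrays were listed. Likeness was taken as the largest absolute deviation between the log2 differences from untreated cells in control RNA, 1# and 2#, where a smaller value is closer. The nearest gene to ASNS was NIP7, a ribosome assembly factor gene, at 0.12, with intensities of 2710 in untreated cells, 2771 in control RNA, 1026 in 1# and 1442 in 2#. CHORDC1, which encodes a partner of HSP90, followed at 0.14 and PSAT1 at 0.19. PSAT1 was in turn nearest to GADD45B, a stress-induced gene, at 0.18, then to ASNS and CHORDC1, both at 0.19. Within 0.2 of each of them lay 4 genes out of 13755. ASNS and PSAT1 ranked 8 and 20 from the lowest, so this count was bound to be small. These likenesses rest on 4 arrays and on the siRNA values that brought ASNS and PSAT1 to attention.

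Of 25 further genes of the folate and methionine cycles, 20 were matched to a probe and 18 passed the filter. In limma 0 were called, 9 were lower in all 4 pairs and 5 higher, and the median log2 difference was -0.12. Of all genes, 28.7% were lower and 32.6% higher in all 4 pairs. MTRR, which reactivates methionine synthase, read 744.6 in untreated cells, 773.6 in control RNA, 423.5 in 1# and 454.9 in 2#. It was the only gene of the 18 at least 1.5-fold lower in all pairs (0.4% of all genes), at -0.79 ± 0.09 (SE, log2) and an adjusted p of 0.0501. MAT2A, which makes S-adenosylmethionine, went the other way, with 5879 and 5941 in the untreated and control RNA arrays and 10028 and 8381 in 1# and 2#. MAT2A differed by 0.63 ± 0.11 (SE, log2) at a limma adjusted p of 0.0501. MTFMT, which formylates the mitochondrial initiator tRNA, had a log2 difference of -0.57 and the folate carrier gene SLC19A1 one of -0.51, while the folate receptor gene FOLR1 had 0.46. SLC19A1 read 274.4 in 1# but 410.4 in 2#, against 477.1 in untreated cells.

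Among 18 further genes of asparagine, serine, glycine, glutamine and proline metabolism, 13 were matched and kept. In limma 0 were called, 3 were lower and 3 higher in all 4 pairs (28.7% and 32.6% of all genes), and the median log2 difference was -0.02. PYCR1, the last enzyme of proline synthesis, read 1379 in untreated cells, 1424 in control RNA, 680.5 in 1# and 1067 in 2#. Its log2 difference of -0.72 ± 0.20 (SE) had an adjusted p of 0.0809 in limma. CBS, which condenses serine with homocysteine, read 866.3, 932.8, 521.3 and 640.6 in the same order, a log2 difference of -0.64. PCK2, the mitochondrial phosphoenolpyruvate carboxykinase gene, had -0.28. The glutamine synthetase gene GLUL was on the other side, at 0.50, and so was SLC1A4, a transporter of alanine, serine and cysteine, at 0.30. For GLUL even the brightest of 4 probes was dim, at 121.4 in untreated cells, 112.8 in control RNA, 174.1 in 1# and 157.6 in 2#.

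The genes of the amino acid response were mixed. Of 16 listed, 15 passed the filter, 0 were called in limma, 9 were lower in all 4 pairs and 3 higher (28.7% and 32.6% of all genes), and the median log2 difference was -0.26. Some of these genes had been reported before on these arrays, so the values of those named here are a description, without a test. ATF4 itself read 2759 in untreated cells, 2941 in control RNA, 2630 in 1# and 2166 in 2#. Both siRNA arrays were below the controls, but 1# was closer to them than 2#. ATF4 had a log2 difference of -0.26 ± 0.12 (SE). CEBPG, whose protein pairs with ATF4, read 1892 in untreated cells, 1699 in control RNA, 1210 in 1# and 1193 in 2#, a log2 difference of -0.58. The large neutral amino acid transporter gene SLC7A5 read 6054 in untreated cells, 6322 in control RNA, 1106 in 1# and 3404 in 2#. Its mean log2 difference of -1.67 rested mainly on 1#, since it was -0.86 without that array. The cystine transporter gene SLC7A11 had -0.77 and the translation repressor gene EIF4EBP1 -0.48. SLC7A11 was dim, at 165.2 in untreated cells, 130.7 in control RNA, 79.5 in 1# and 92.9 in 2#. Its siRNA values thus lay near the median probe (75.6), and control RNA minus untreated was already -0.34. DDIT4, an inhibitor of mTORC1 signalling, had 0.71.

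**Figure D4:**
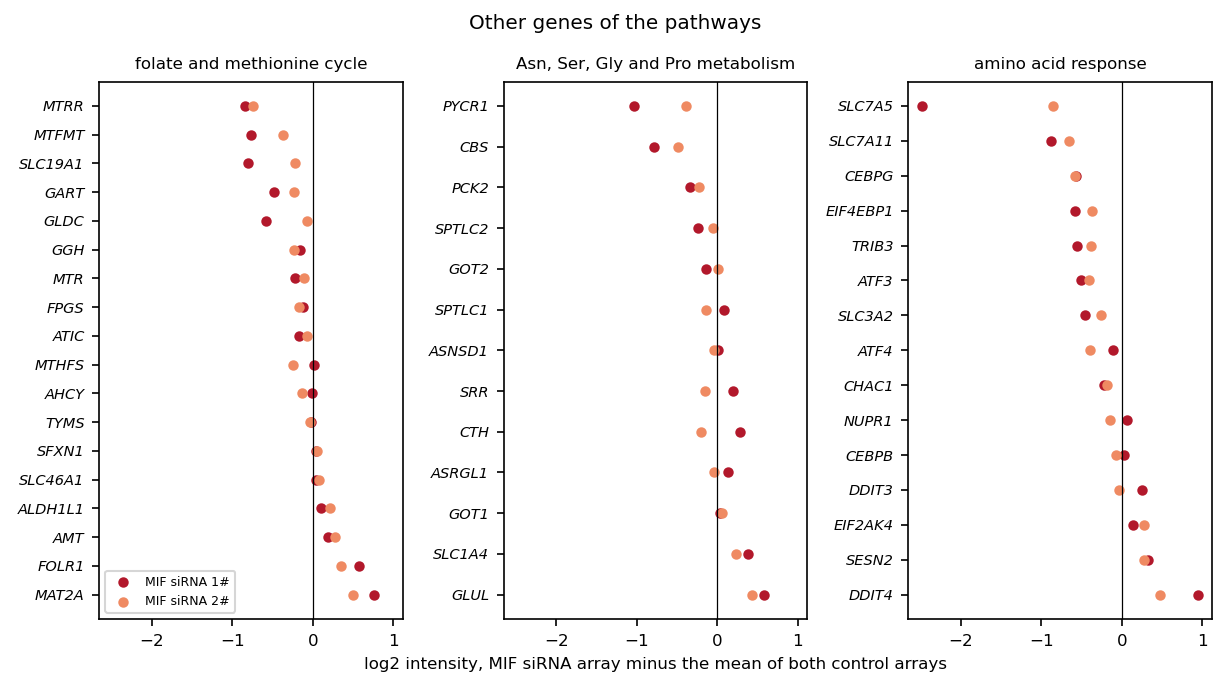
Log2 intensity on each MIF siRNA array minus the mean of both control arrays (x axis) for the kept genes of 3 lists (y axis, sorted by mean). In the folate and methionine list MTRR is lowest and MAT2A highest. In the amino acid response list SLC7A5 is lowest and DDIT4 highest, with 1# farther from 0 than 2# for both.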

How the data were processed

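The 4 arrays were Illumina Human-6 bead arrays with 1 colour, hybridised with total RNA. The deposited sample tables hold 1 linear intensity for each of 48701 probes, made with BeadStudio per the submitters' processing notes. Their medians differ and none is below 39.8, so they appear neither normalized nor background-subtracted, and remaining background shrinks the fold changes of dim probes. The number of arrays limits the precision. The authors' series value table holds normalized intensity (median 73.8 in every column). From row 19832 on, its probe names are displaced by 1 row relative to the sample tables. The 39 ribosomal protein probes from there on had a median of 4425 by the sample tables' naming and 112 by its own, so it was matched by position. It had 0 columns of other samples.

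Of these probes, 23687 had 1 gene in the platform annotation, 35 several and 24979 were not listed. Symbols were updated through Entrez identifiers (RefSeq, GRCh38.p14). Intensities were quantile-normalized, floored at 32 (0 values were below) and log2-transformed. The brightest probe represented each gene, and genes above the median probe (75.6) were kept. MIF siRNA was tested against both control arrays (2 residual degrees of freedom) and on group means (1, from the siRNA pair, which the lone control arrays were assumed to share) with limma 3.58.1 in R 4.3.3, two-sided, with Benjamini-Hochberg adjustment over all 13755 genes and a threshold of 0.05. An exact permutation test of 2 arrays against 2 cannot go below 0.333 and was not used. The fit was tested on simulated data. The named genes are the enzymes, MIF, the 5 of each list with the largest difference of 1 sign in all pairs, and the 3 nearest genes to ASNS and to PSAT1. The 5 of each list were thus picked by the same comparison that gave their p-values, which are no independent support. ATF4 was added after its values were seen. The members and lists were chosen with earlier results of these data known.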

Additional observations from a re-analysis of the deposited data

How the results depend on the processing

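The array number and the lone control arrays limit every comparison, and 1# and 2# may differ in dose or siRNA. No paired analysis was possible because the labels number only the siRNA arrays and each control condition has 1 array. The count of 0 genes called against both controls became 1581 under scaling to a common median (86.3% of them higher), 590 with no filter, 927 with a filter at percentile 75 and 1007 with an intensity trend in the variance. Leaving out 1 siRNA array gave 1542 without 1# and 4624 without 2#. The trend also gave 76 calls against control RNA and 22 against untreated cells, where 0 had been called. The counts with 1 siRNA array left out measure no spread between siRNA arrays, since the lone array was assumed to vary like the control pair. No conclusion is drawn from them. Group means could not be tested with a siRNA array left out, since no residual degree of freedom remains.

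The 55 genes at least 1.5-fold lower in all pairs became 24 under scaling to a common median, 136 against control RNA alone, 86 against untreated cells alone and 3 at 2-fold, and 58 without 1# and 538 without 2#. Of the enzyme genes, MTHFD2 was missing from this count under that scaling and PSAT1 with the mean of all probes, where averaging with its dim second probe brings the log2 difference to -0.52. MTHFD1L joined it without 2# and against untreated cells alone. The median of the 9 enzymes, -0.31, became -0.17 under scaling to a common median (which moved the median of all genes to 0.09), -0.39 against control RNA alone and -0.24 against untreated cells alone. That of control RNA minus untreated turned from -0.031 to 0.040 under that scaling. ASNS and PSAT1, which were not tested, kept their direction in all 24 values, and 2 of PSAT1 moved beyond the spread of the siRNA arrays. Of 84 values of the other 7 enzymes, 70 kept their direction and side of the threshold and 10 (MTHFD2 and MTHFD1L) passed it. The remaining 4 turned: PHGDH to -0.048 without 1# (0.196 without 2#) and -0.018 against untreated cells alone, SHMT1 to -0.12 with the mean of all probes, and MTHFD1 to 0.023 under scaling to a common median. Their causes were not tested.

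With the series value table's own identifiers, an alternative chosen after seeing the data, the probes of 5 of the 9 enzymes carry a neighbouring probe's values, and the dimmer SHMT1 probe then stands for that gene. ASNS then read 0.24, PSPH 0.049, SHMT1 -0.26, MTHFD1 0.091 and MTHFD1L -0.004, while PSAT1 stayed at -1.02 and MTHFD2 at -0.71.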
